A study of Mus musculus with 18 samples.

Results

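Transcripts of 9 genes of the AP-1 family were followed in mouse bone marrow-derived macrophages: Fos, Fosb and Fosl2 of the FOS group, Jun, Junb and Jund of the JUN group, and the related bZIP factors Atf3, Maff and Batf. They were taken by symbol from the 45706 genes of the count table, and all 9 were among the 11308 genes with enough reads to be tested. The cells came from C57BL/6 mice of 2 genotypes, wild-type (WT) and a Rela knock-in labelled RelA-TA-KI, whose "TA" the labels do not spell out. Cells of both genotypes were grown from marrow for 6 days in medium with 30% L929-conditioned medium, and the age given for every sample is 12 days. They were left unstimulated or were given 100 ng/ml LPS or 10 ng/ml TNF for 0.5, 1, 3 or 8 h, which makes 9 conditions with 1 library of each genotype, 18 libraries in all. Levels are CPM, read counts divided by the library's size after edgeR's TMM scaling.

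AP-1 is a pair of basic leucine zipper (bZIP) proteins that binds DNA as a dimer. JUN proteins pair with each other or with FOS proteins, whereas FOS proteins need a JUN partner. LPS is sensed by the receptor TLR4 and TNF by its own receptors. Both switch on MAP kinases, which act on AP-1 proteins and on the factors that start transcription of Fos and Jun, and both switch on NF-kB, whose subunit RelA is the product of the gene changed in the knock-in. In macrophages AP-1 genes are among the fastest to respond to such signals.

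The libraries held 4663650 to 6721917 assigned reads, and 13774 to 15261 genes had at least 1 read. Since no condition had a second library of the same genotype, the spread used in every test is how far the 9 genotype pairs differed from each other, and a genotype difference cannot be told apart from a difference between the cultures of the WT and RelA-TA-KI cells. Macrophage markers, among them Csf1r and Lyz2, were present at a summed level of 11428 to 15953 CPM in WT and 11421 to 17024 CPM in RelA-TA-KI libraries. Junos and Gm11175 lie antisense to Jun and Jund over 689 and 919 bases, and Gm24748 lies opposite Atf3 over 108 bases, and reads of such partners could be split between them. These 3 genes had 1 to 11, 1 to 10 and 0 counts per library, against at least 455, 381 and 1055 counts for Jun, Jund and Atf3.

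The 250 bases before the transcription start are shown for 7 of the 9 genes. These include most of the fast risers, the late riser Batf and both members that were lower in the knock-in. The sequences are RefSeq's for GRCm38.p6, written along the gene's strand, and all 9 members had an entry. Capitals mark matches, on either strand, to the cyclic AMP response element (CRE, TGACNTCA), its core alone (TGACG, which a CRE with G as the free base also holds), and the kB motif of NF-kB.
Fos (chr12:85473640-85473889, forward strand): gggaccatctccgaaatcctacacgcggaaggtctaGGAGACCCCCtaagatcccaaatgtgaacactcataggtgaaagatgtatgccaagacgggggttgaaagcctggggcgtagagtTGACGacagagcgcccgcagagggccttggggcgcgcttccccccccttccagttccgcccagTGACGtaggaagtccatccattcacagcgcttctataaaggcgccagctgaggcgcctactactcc
Fosb (chr7:19310046-19310295, reverse strand): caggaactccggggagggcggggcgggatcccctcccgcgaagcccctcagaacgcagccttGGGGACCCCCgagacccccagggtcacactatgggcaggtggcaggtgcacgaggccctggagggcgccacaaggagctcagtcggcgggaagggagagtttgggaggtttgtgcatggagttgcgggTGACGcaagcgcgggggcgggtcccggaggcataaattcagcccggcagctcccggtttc
Jun (chr4:95052223-95052472, reverse strand): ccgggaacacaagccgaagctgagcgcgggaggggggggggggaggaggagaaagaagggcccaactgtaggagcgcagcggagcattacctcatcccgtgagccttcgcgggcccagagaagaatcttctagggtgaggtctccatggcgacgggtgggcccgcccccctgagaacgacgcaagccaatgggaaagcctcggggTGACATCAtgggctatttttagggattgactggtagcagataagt
Junb (chr8:84978749-84978998, reverse strand): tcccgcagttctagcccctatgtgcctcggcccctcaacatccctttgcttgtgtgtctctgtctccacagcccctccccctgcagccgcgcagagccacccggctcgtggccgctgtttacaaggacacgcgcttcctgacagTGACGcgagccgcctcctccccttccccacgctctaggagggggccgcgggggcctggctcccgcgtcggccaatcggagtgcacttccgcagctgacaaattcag
Atf3 (chr1:191183334-191183583, reverse strand): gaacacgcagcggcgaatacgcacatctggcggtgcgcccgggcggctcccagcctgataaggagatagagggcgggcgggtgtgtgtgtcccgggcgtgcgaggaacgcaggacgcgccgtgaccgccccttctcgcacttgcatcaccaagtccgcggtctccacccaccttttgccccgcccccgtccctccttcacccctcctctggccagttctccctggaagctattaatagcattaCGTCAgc
Maff (chr15:79347270-79347519, forward strand): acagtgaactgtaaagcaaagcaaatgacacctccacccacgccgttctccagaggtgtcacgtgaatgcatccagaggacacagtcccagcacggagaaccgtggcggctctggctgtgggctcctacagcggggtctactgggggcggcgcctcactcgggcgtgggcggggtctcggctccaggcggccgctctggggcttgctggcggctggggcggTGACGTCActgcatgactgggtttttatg
Batf (chr12:85686470-85686719, forward strand): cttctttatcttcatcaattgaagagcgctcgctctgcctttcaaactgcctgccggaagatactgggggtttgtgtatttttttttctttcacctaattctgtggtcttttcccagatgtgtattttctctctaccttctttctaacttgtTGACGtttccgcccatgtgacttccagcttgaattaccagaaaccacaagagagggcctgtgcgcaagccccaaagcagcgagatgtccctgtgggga
In Fos, 2 cores lay 66 and 129 bases before the start and a kB match 214 bases before it. Fosb had a core at 60 and a kB match at 188 bases, and Fosl2, not printed, had overlapping kB matches at 181 and 182 bases. Jun had a CRE at 45 bases, and Junb and Batf had a core at 106 and 98 bases. The core of Atf3 lay 7 bases before the RefSeq start, which lies inside the span that the count table gives to the gene. Maff had 3 RefSeq starts, of which the one shown had a CRE at 29 bases. A later start had a CRE at 45 bases, a kB match at 70 bases and a core at 122 bases. The window of the earliest Maff start held no match. The window of Jund held none of these. The canonical AP-1 site TGANTCA and the CArG box bound by serum response factor were found in no member's window. Sequence further than 250 bases upstream was not searched, so sites there would have been missed. Among 32851 promoter windows of the same length, 7.49% had a CRE, 17.8% a core, 7.25% a kB match, 6.75% an AP-1 site and 1.47% a CArG box. These matches describe letters only.

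Per kilobase of the deposited gene length, Atf3 was the most abundant member in 16 of the 18 libraries. The exceptions were WT cells at 0.5 h of LPS and of TNF, where Junb was first. The order of members and the shares below depend on these lengths, which may differ from those of the transcripts expressed. The level of Atf3 ranged from 72.4 to 752 CPM per kb. Fosb was the least abundant in 12 of the libraries, at 0.0528 to 20.4 CPM per kb. With 1 library per point, the order of members close to each other is a description. Within the FOS group the make-up turned over within 1 h. In WT cells Fos held 55.8% of the summed CPM per kb of Fos, Fosb and Fosl2 before stimulation, 87.7% at 0.5 h of LPS and 45.9% at 1 h, while Fosb held 2.6% before stimulation and 28.4% at 1 h. After TNF the share of Fos at 1 h was 23.8% in WT and 19.4% in RelA-TA-KI cells, the lowest in either genotype. Fosl1, the remaining FOS gene, had only 1 to 18 counts in any library and was not tested.

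Within the JUN group, Jun held 59.4% of the summed CPM per kb in unstimulated WT cells and 60.9% in unstimulated RelA-TA-KI cells. Junb was the largest part in WT cells at every time after both stimuli, with 62.7%, 74.9%, 72.2% and 70.6% along the LPS course. At 0.5 h the genotypes differed in which gene was in front. Junb held 37.4% and Jun 54.1% in RelA-TA-KI cells after LPS, and the values after TNF were 33.4% and 55.4%. The summed JUN level over the summed FOS level was 8.18 in unstimulated WT cells, was 3.92 at 0.5 h of LPS and 45.1 at 3 h. The same ratio in RelA-TA-KI cells was 5.67, 1.90 and 11.2, and it was lower than in WT in all 9 pairs. No test was made of these shares and ratios, which pool the members.

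**Figure D1:**
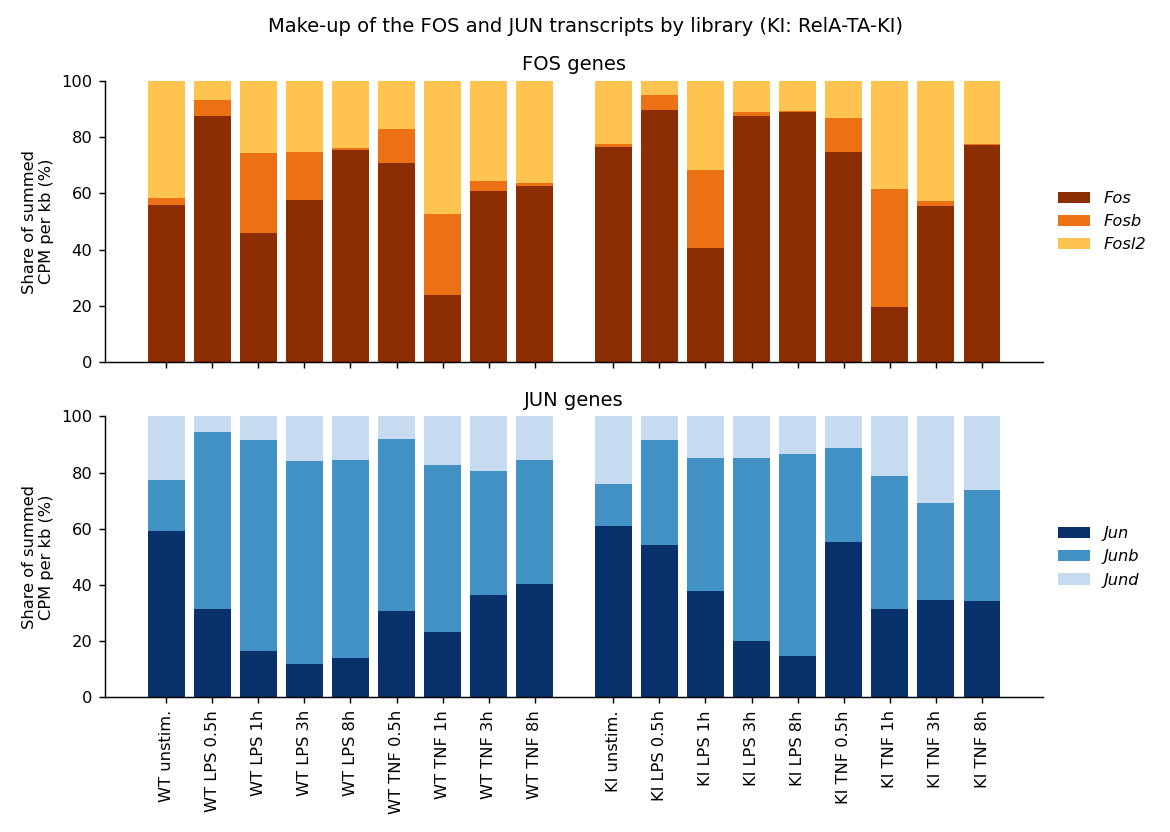
Share of each gene (% of the summed CPM per kb, vertical axis) within the FOS genes (upper panel) and the JUN genes (lower panel) in each of the 18 libraries (horizontal axis, 1 bar per library). Fos fills most of the FOS bar at 0.5 h of LPS (87.7% in WT), and Junb most of the WT JUN bar at 1 h (74.9%).

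Fos (chr12:85473890-85477273, forward strand, 4 exon blocks), the prototype immediate early gene, made a short pulse. Positions here are those of the count table on mm10. In WT cells it stood at 14.97 CPM unstimulated and at 302, 41.6, 8.10 and 20.3 CPM after 0.5, 1, 3 and 8 h of LPS. The RelA-TA-KI libraries had 35.9 CPM unstimulated and 808, 50.3, 62.2 and 64.1 CPM along the same course. Both peaks were at 0.5 h, and at 3 h the WT library was below its unstimulated level while the RelA-TA-KI library was not. After TNF the values were 83.5, 8.50, 10.4 and 13.1 CPM in WT cells and 164, 10.9, 16.9 and 25.1 CPM in RelA-TA-KI cells. The TNF pulse was smaller in both genotypes and had ended by 1 h.

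Fosb (chr7:19302721-19310045, reverse strand, 4 exon blocks), whose protein lacks part of the activating region in its shorter form, came with Fos but lasted until 1 h. The WT libraries held 1.11 CPM unstimulated and 31.1, 41.0, 3.84 and 0.323 CPM along the LPS course. The RelA-TA-KI libraries held 0.717 CPM and then 76.6, 55.0, 1.60 and 0.295 CPM. After TNF the levels were 22.8, 16.4, 0.961 and 0.36 CPM in WT and 42.1, 37.9, 0.834 and 0.198 CPM in RelA-TA-KI cells. Unstimulated and 8 h values rest on 1 to 9 counts per library, so only the early values are well measured.

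Fosl2 (chr5:32135801-32157842, forward strand, 4 exon blocks) encodes FRA2, a FOS protein without a strong activating region of its own. It changed over a narrower range, from 14.5 to 179 CPM. WT levels were 45.9 CPM unstimulated, 94.5, 96.2, 14.5 and 26.5 CPM after LPS, and 83.6, 69.8, 25.0 and 31.2 CPM after TNF. RelA-TA-KI levels were 43.2 CPM unstimulated, 179, 163, 32.5 and 31.6 CPM after LPS, and 119, 88.5, 53.1 and 29.9 CPM after TNF. Both genotypes were above the unstimulated level at 0.5 and 1 h and, after LPS, below it at 3 and 8 h.

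Jun (chr4:95049034-95052222, reverse strand, 1 exon block), the founding JUN gene, was already high in resting cells. WT cells had 177 CPM unstimulated, 579, 263, 103 and 147 CPM after LPS, and 349.9, 137, 228 and 198 CPM after TNF. RelA-TA-KI cells had 219 CPM unstimulated, 1253, 553, 217 and 204 CPM after LPS, and 639, 242, 262 and 221 CPM after TNF. Each course peaked at 0.5 h. The RelA-TA-KI value at 0.5 h of TNF was above the WT value at 0.5 h of LPS.

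Junb (chr8:84976909-84978748, reverse strand, 1 exon block), a JUN protein that activates more weakly than JUN and can restrain it, stayed high. Resting levels were nearly the same, 30.8 CPM in WT and 31.2 CPM in RelA-TA-KI cells. LPS gave 662, 679, 357 and 429 CPM in WT and 499.7, 398, 407 and 569.6 CPM in RelA-TA-KI cells. TNF gave 401, 202, 159 and 123 CPM in WT and 222, 209, 151 and 146 CPM in RelA-TA-KI cells. WT was higher at 0.5 h of either stimulus and at 1 h of LPS, and RelA-TA-KI was higher at 3 and 8 h of LPS and at 8 h of TNF. Jund (chr8:70697739-70700616, forward strand, 1 exon block), which many resting cells express steadily, covered only 3.46-fold over all libraries. Its WT levels were 61.0 CPM unstimulated, 93.7, 119, 123 and 147 CPM after LPS, and 84.0, 90.9, 110.3 and 68.6 CPM after TNF. Its RelA-TA-KI levels were 78.0 CPM, then 177, 195, 146 and 164 CPM after LPS, and 117, 148, 211 and 152 CPM after TNF.

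Atf3 (chr1:191170296-191218039, reverse strand, 5 exon blocks), a stress-induced bZIP factor known to restrain inflammatory genes in macrophages, rose early and stayed up. WT cells had 156 CPM unstimulated, 700.3, 931, 608 and 1017 CPM after LPS, and 380.3, 318, 312 and 257 CPM after TNF. RelA-TA-KI cells had 189 CPM unstimulated, 1212, 1619, 932 and 1442 CPM after LPS, and 660.3, 606, 578 and 414 CPM after TNF. The LPS course had a dip at 3 h in both genotypes, and no TNF value reached the LPS value of its own genotype and time.

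Maff (chr15:79347541-79359072, forward strand, 4 exon blocks) encodes a small MAF protein, which has a bZIP but no activating region. WT levels were 7.05 CPM unstimulated, 57.2, 120.1, 36.0 and 13.9 CPM after LPS, and 39.3, 34.6, 40.2 and 21.1 CPM after TNF. RelA-TA-KI levels were 5.74 CPM, then 26.1, 64.6, 22.9 and 2.36 CPM after LPS, and 17.5, 17.7, 18.1 and 7.13 CPM after TNF. LPS gave a peak at 1 h and TNF a plateau to 3 h, and RelA-TA-KI was lower throughout. The RelA-TA-KI value at 8 h of LPS rests on 8 counts.

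Batf (chr12:85686669-85709087, forward strand, 3 exon blocks), a bZIP factor that pairs with JUN proteins and works with IRF factors in immune cells, was the late member. WT levels were 7.79 CPM unstimulated and 10.4, 14.0, 79.3 and 240.0 CPM after LPS. RelA-TA-KI levels were 8.78 CPM and 8.26, 6.26, 16.9 and 140.0 CPM. TNF left Batf between 9.13 and 21.6 CPM in WT and between 8.32 and 15.2 CPM in RelA-TA-KI cells. At 3 h of LPS the WT library was further above its resting level than the RelA-TA-KI library.

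**Figure D2:**
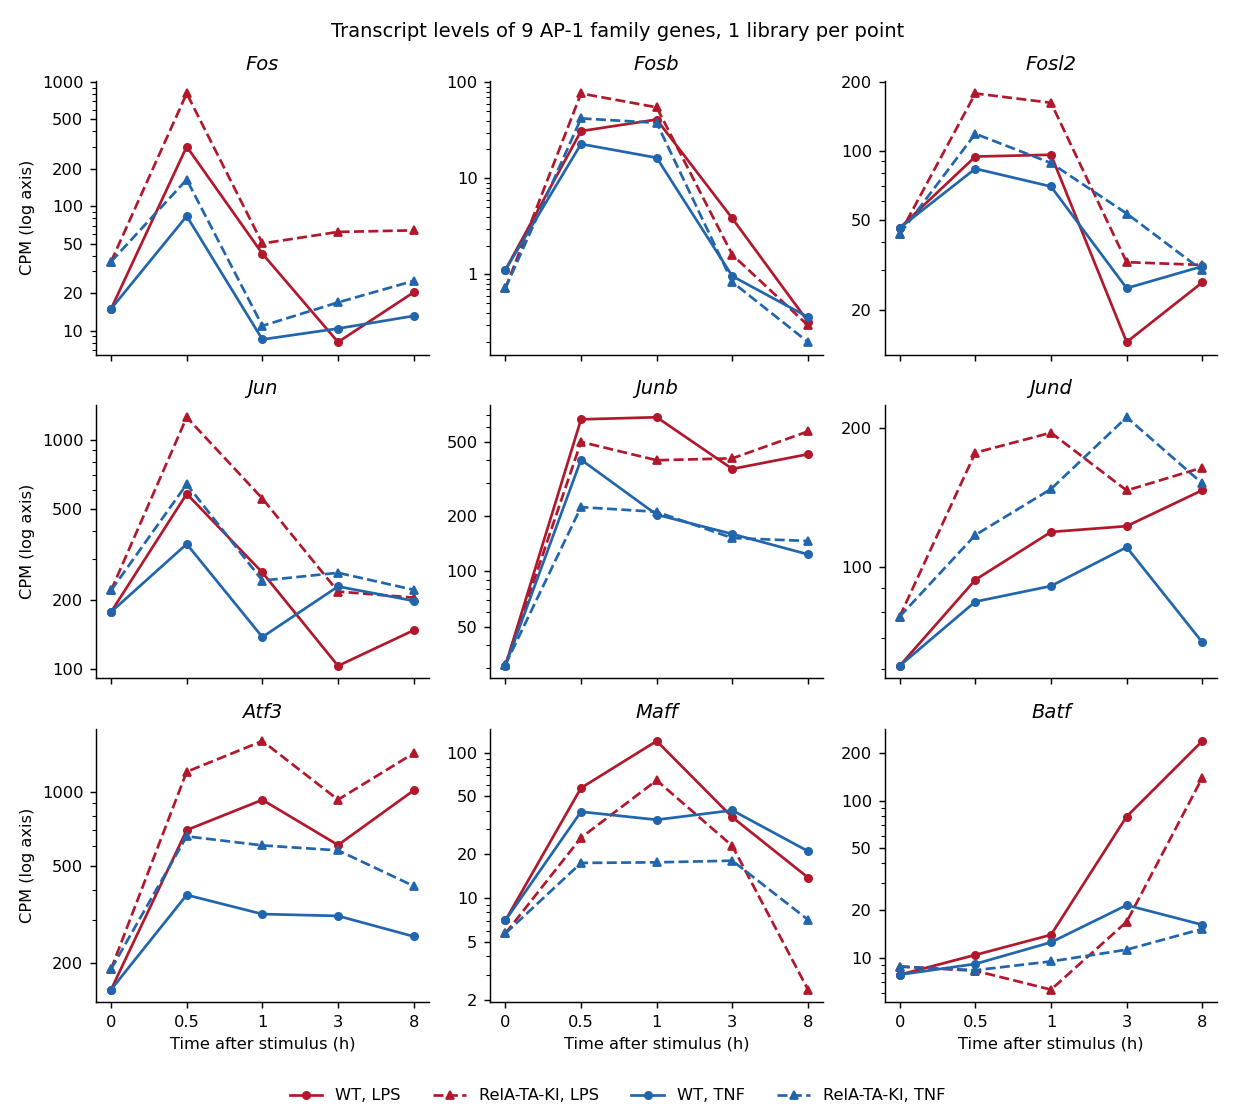
CPM of each gene (vertical log axis, its own scale in each panel) against hours after stimulus (horizontal axis, unevenly spaced), 1 library per point, red for LPS and blue for TNF, solid lines and circles for WT, dashed lines and triangles for RelA-TA-KI. Fos, Jun and Fosb peak by 1 h, Junb and Atf3 stay up, and Batf reaches 240.0 CPM in WT cells at 8 h of LPS.

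Taking both genotypes together, edgeR's quasi-likelihood test with Benjamini-Hochberg adjustment over all genes called a change over the LPS course for all 9 members. The largest change of each was a rise, by 1.17 (Jund) to 5.66 (Fosb) on the log2 scale. Of all genes 72.2% were called, 35.8% as rises. Over the TNF course 8 of the 9 rose, where 30.4% of all genes were called, 16.7% as rises. Batf had a largest change of 1.00 after TNF, with an adjusted p of 0.35 in this test. The LPS and TNF courses share the unstimulated libraries, so their values stand side by side only. The rise of Fosl2 depends on the unstimulated libraries: without the RelA-TA-KI unstimulated library the largest change was the late fall, at -1.35 after LPS and -0.88 after TNF. The TNF call of Jund (adjusted p = 0.011) was lost without the same library (adjusted p = 0.064) and without the RelA-TA-KI library at 3 h of TNF.

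At 0.5 h of LPS, where 0.92% of all genes were called, 7 of the 9 members had risen. The changes were 4.42 ± 0.45 (log2, SE) for Fos, 5.66 ± 0.44 for Fosb, 4.22 ± 0.32 for Junb, 2.70 ± 0.27 for Maff, 2.41 ± 0.14 for Atf3, 2.12 ± 0.25 for Jun and 1.53 ± 0.26 for Fosl2, each over 2 libraries per condition. At 1 h, with 6.84% of all genes called, 7 members were above the unstimulated level. Fos was no longer among them (1.00 ± 0.45, adjusted p = 0.29), and Jund had joined at 1.14 ± 0.21. At 3 h, with 47.6% called, Junb (3.63 ± 0.32), Batf (2.45 ± 0.46), Maff (2.24 ± 0.28), Atf3 (2.12 ± 0.14) and Jund (0.96 ± 0.21) were up and Fosl2 was down (-1.01 ± 0.30). At 8 h, with 67.7% called, the 4 members up were Batf (4.53 ± 0.44), Junb (4.02 ± 0.32), Atf3 (2.81 ± 0.14) and Jund (1.17 ± 0.21).

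Several of these calls missed the threshold when 1 unstimulated library was left out, while the changes kept most of their size. Without the RelA-TA-KI unstimulated library, Fosl2 stood at 1.20 at 0.5 h (adjusted p = 0.24) and 1.14 at 1 h (adjusted p = 0.072), and Jund at 0.99 at 1 h (adjusted p = 0.078). Jun at 1 h was at 0.96 ± 0.24 (adjusted p = 0.036) with all libraries and at 0.76 without that one (adjusted p = 0.31). Jun at 1 h was lost in 8 of the 18 fits that left out 1 library each, and Fosl2 at 3 h was lost without the WT unstimulated or the WT 3 h library (adjusted p up to 0.15). Scaling by library totals in place of TMM ended the calls of Jund at 3 h (adjusted p = 0.10) and 8 h (adjusted p = 0.35).

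After TNF 4 members were up, Fosb, Junb, Maff and Atf3, both at 0.5 h and at 1 h, when 0.38% and 1.07% of all genes were called. Fosb rose by 4.97 ± 0.46 and 4.68 ± 0.47, Junb by 3.31 ± 0.31 and 2.73 ± 0.31, Maff by 2.15 ± 0.28 and 2.04 ± 0.28, and Atf3 by 1.53 ± 0.14 and 1.34 ± 0.14. The values of Fos (2.33 ± 0.43, adjusted p = 0.067) and Jun (1.26 ± 0.24, adjusted p = 0.062) at 0.5 h did not pass. DESeq2 passed both, and Fosl2 with them. At 3 h, with 13.5% of genes called, and at 8 h, with 31.9%, the members up were Junb (2.32 ± 0.31 and 2.13 ± 0.31), Atf3 (1.30 ± 0.14 and 0.91 ± 0.13), Maff (2.19 ± 0.28 and 1.1 ± 0.30) and Jund (1.15 ± 0.21 and 0.59 ± 0.21). The last value of Jund (adjusted p = 0.049) was lost in 11 of 18 fits without 1 library and under library totals, no filter and limma-voom. Maff was lost at 0.5, 1 and 8 h without the WT unstimulated library (adjusted p = 0.18, 0.15 and 0.30).

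**Figure D3:**
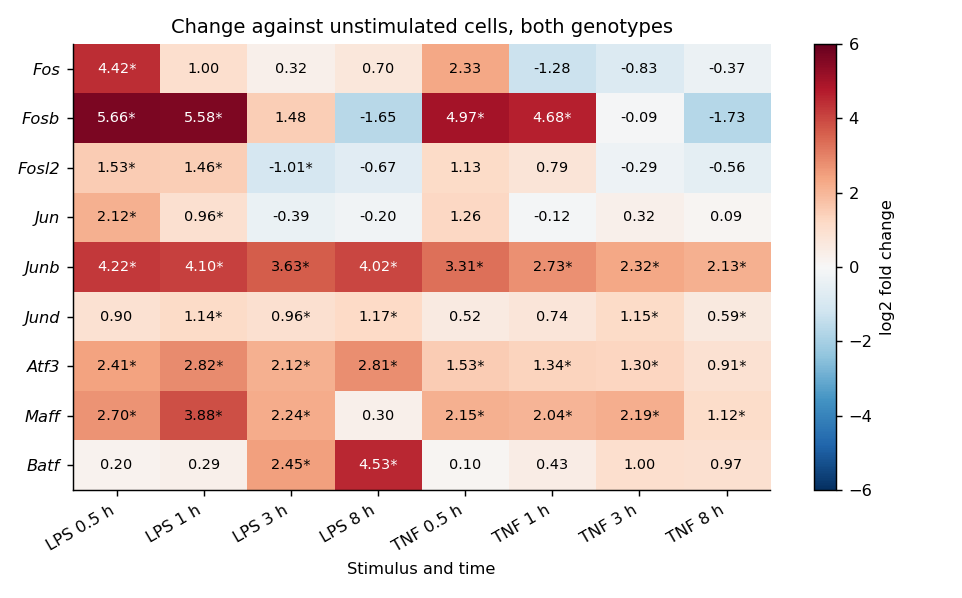
Fitted log2 fold change against unstimulated cells (colour and printed value, red for higher) of each member (rows) at each stimulus and time (columns), both genotypes together, with an asterisk where the adjusted p was under 0.05. Junb and Atf3 carry an asterisk in all 8 columns, and Batf at 3 and 8 h of LPS.

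Steps between neighbouring times dated the falls. From 0.5 to 1 h of LPS, where 2.33% of all genes were called, Fos fell by 3.42 ± 0.43 and Jun by 1.16 ± 0.24, while Maff rose by 1.18 ± 0.21. From 1 to 3 h, with 37.8% called, Fosb (-4.11 ± 0.41), Fosl2 (-2.48 ± 0.29), Maff (-1.63 ± 0.22), Jun (-1.35 ± 0.25) and Atf3 (-0.71 ± 0.13) fell and Batf rose by 2.16 ± 0.46. From 3 to 8 h, with 51.3% called, Batf rose by a further 2.07 ± 0.37 and Atf3 by 0.69 ± 0.13, and Maff (-1.95 ± 0.31) and Fosb (-3.13 ± 1.19) fell. The TNF steps had fewer calls. Fos fell by 3.62 ± 0.49 and Jun by 1.38 ± 0.24 from 0.5 to 1 h (0.318% of genes called), and Maff by 1.07 ± 0.25 from 3 to 8 h (15.7%). From 1 to 3 h, with 6.15% called, the falls were those of Fosb (-4.78 ± 0.50) and Fosl2 (-1.08 ± 0.27).

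In these steps each library stands for 1 of 2 values at a time, and calls near the threshold were lost when it was left out. Of the 18 such fits, Fosl2 from 1 to 3 h of TNF was lost in 10 (adjusted p up to 0.24), Fosb from 3 to 8 h of LPS in 9 (adjusted p up to 0.33), Jun from 0.5 to 1 h in 5 after LPS (adjusted p up to 0.28) and 6 after TNF (adjusted p up to 0.60), Fos and Maff from 0.5 to 1 h in 4 each, after TNF and LPS respectively (adjusted p up to 0.20 and 0.14), and Maff from 3 to 8 h of TNF in 2 (adjusted p up to 0.096). Atf3 from 3 to 8 h of LPS was lost under library totals (adjusted p = 0.11).

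LPS was set against TNF at matched times, which compares 100 ng/ml with 10 ng/ml of different agents. Over the 4 times 6 members were higher after LPS, where 48.9% of all genes were called in either direction. These were Fos (1.65 ± 0.24), Junb (1.37 ± 0.14), Atf3 (1.27 ± 0.07), Batf (1.24 ± 0.24), Maff (0.40 ± 0.13) and Jund (0.30 ± 0.10). The Maff average joins 1.83 ± 0.22 at 1 h with -0.82 ± 0.34 at 8 h, the latter not called (adjusted p = 0.052). At 8 h Maff was at 13.9 CPM after LPS and 21.1 CPM after TNF in WT cells. In RelA-TA-KI cells it was at 2.36 and 7.13 CPM, which rest on 8 and 36 counts. Fosb (0.81 ± 0.61, adjusted p = 0.29), Jun (0.23 ± 0.12, adjusted p = 0.13) and Fosl2 (0.06 ± 0.14, adjusted p = 0.75) did not pass. Jund was lost in 9 of 18 fits without 1 library (adjusted p up to 0.099), and stood at -0.01 under library totals. Maff was lost in 3 such fits, with 0.10 (adjusted p = 0.67) without the WT library at 8 h of LPS.

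Which members passed in LPS against TNF changed with time, and timing was not compared between members by a test. Fos had the largest estimate at 0.5 h (2.08 ± 0.39, adjusted p = 0.25), which did not pass edgeR's test. Neither Fos (2.28 ± 0.51, adjusted p = 0.076) nor Jun (1.08 ± 0.24, adjusted p = 0.068) passed it at 1 h. At 0.5 h, with 0.0442% of genes called, Atf3 (0.88 ± 0.13) was the only member that passed, and it was lost in 8 of the 18 fits without 1 library and under library totals. At 1 h, with 1.2% called, Maff (1.83 ± 0.22), Atf3 (1.48 ± 0.13) and Junb (1.37 ± 0.28) were higher after LPS, Junb being lost in 15 of the 18 fits (adjusted p up to 0.45). At 3 h, with 31.3% called, Batf (1.46 ± 0.43), Junb (1.31 ± 0.28) and Atf3 (0.82 ± 0.13) were higher after LPS and Jun was lower (-0.71 ± 0.24). Of these, Jun was lost in 9 of the 18 fits (adjusted p up to 0.33) and Batf in 3 (0.32, adjusted p = 0.55 without the WT library at 3 h of LPS). At 8 h, with 58.4% called, Batf (3.56 ± 0.41), Junb and Atf3 (1.90 ± 0.29 and 1.90 ± 0.14) and Jund (0.59 ± 0.21) were higher after LPS. Jund was lost there without either WT library at 8 h and stood at -0.11 under library totals.

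The genotypes differed in opposite directions among the members. Averaged over the 9 conditions, Fos, Fosb, Atf3, Jun, Jund and Fosl2 were higher in RelA-TA-KI cells, Maff and Batf were lower, and Junb did not pass the test. Across all genes 19.7% were called, of which 1162 were higher and 1070 lower. Fos was 1.16 ± 0.22 higher (log2, SE, adjusted p = 0.0047), and higher in 9 of 9 pairs. Atf3 was 0.70 ± 0.06 higher (adjusted p = 6.8e-06), Jun 0.68 ± 0.11 (adjusted p = 0.0017) and Jund 0.63 ± 0.10 (adjusted p = 0.00074), each in 9 of 9 pairs. Fosl2 was 0.54 ± 0.13 higher (adjusted p = 0.013) in 7 of 9 pairs. Maff stood at -1.05 ± 0.12 (adjusted p = 5.2e-05) and was lower in 9 of 9 pairs, and Batf at -0.74 ± 0.22 (adjusted p = 0.04) and lower in 8 of 9.

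The sizes varied between conditions. The RelA-TA-KI over WT ratio of Fos went from 1.21 at 1 h of LPS to 7.69 at 3 h, and that of Atf3 only from 1.21 in resting cells to 1.91 at 1 h of TNF. Maff was at 0.17 of the WT level at 8 h of LPS and 0.81 in resting cells, and Batf at 0.21 at 3 h of LPS. The Maff ratio at 8 h of LPS rests on 8 counts in RelA-TA-KI and 43 in WT cells, so its size is imprecise. Jun was 2.16, 2.10 and 2.11 times the WT level at 0.5, 1 and 3 h of LPS and 1.15 times at 3 h of TNF. Junb (-0.14 ± 0.13, adjusted p = 0.52) was at 0.55 to 0.76 of WT at 0.5 h of TNF and LPS and at 1.33 at 8 h of LPS, higher in 5 and lower in 4 pairs.

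The average of Fosb (0.80 ± 0.18, adjusted p = 0.0087) follows the pairs with many counts: RelA-TA-KI was higher in 4 pairs, those of 0.5 and 1 h, and lower in 5. DESeq2 did not call it (adjusted p = 0.35). Batf was not called in 10 of the 18 fits without 1 library (adjusted p up to 0.091) or without the filter on low counts (adjusted p = 0.13), where Fosl2 also missed (adjusted p = 0.054). Scaling by library totals kept every member's direction but changed the split over all genes, with 28.0% of the called genes higher in RelA-TA-KI cells, against 52.1% with TMM.

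**Figure D4:**
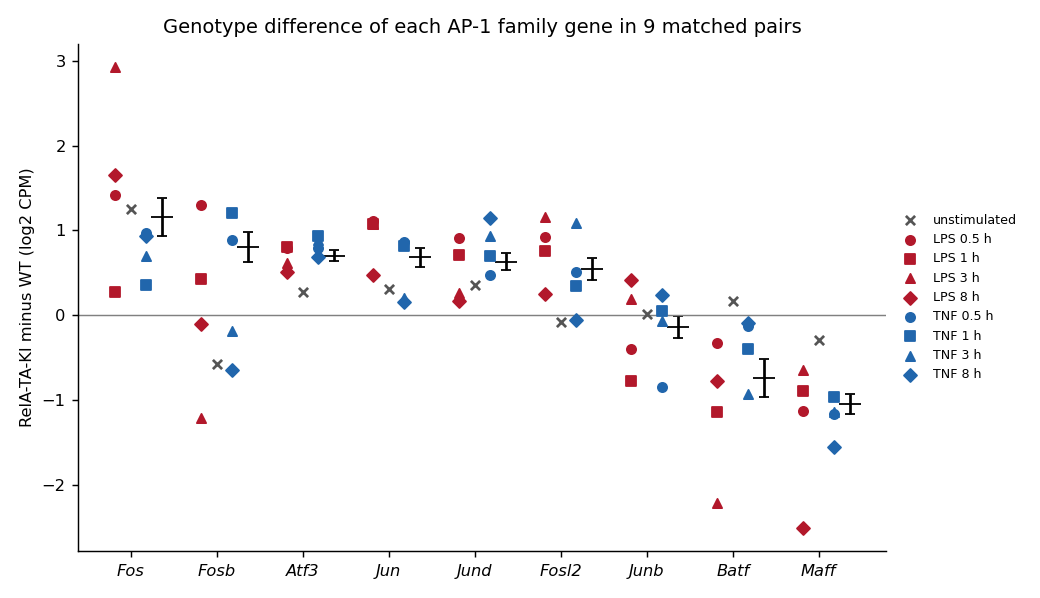
RelA-TA-KI minus WT difference in log2 CPM (vertical axis) of each member in the 9 matched pairs of libraries (points, coloured by stimulus and shaped by time), with the fitted average and its SE as black bars, members ordered by that average. All 9 points lie above 0 for Fos, Atf3, Jun and Jund and below 0 for Maff.

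Within the LPS course, where 9.99% of all genes differed between genotypes, 5 members were higher in RelA-TA-KI cells and 2 lower. Fos was at 1.43 ± 0.32, Jun at 0.94 ± 0.14, Fosl2 at 0.79 ± 0.17, Atf3 at 0.68 ± 0.07 and Jund at 0.52 ± 0.13, and Batf at -1.15 ± 0.26 and Maff at -1.03 ± 0.16. Within the TNF course, with 5.32% called, Atf3 (0.83 ± 0.07) and Jund (0.81 ± 0.13) were higher and Maff (-1.18 ± 0.17) was lower. The values of Jun (0.51 ± 0.14, adjusted p = 0.071), Fosb (0.97 ± 0.28, adjusted p = 0.078), Fos (0.80 ± 0.35, adjusted p = 0.27) and Batf (-0.40 ± 0.29, adjusted p = 0.53) after TNF did not pass. Fits without 1 library lost Jund after LPS in 10 of 18 cases (adjusted p up to 0.12), Fos and Fosl2 in 6 each (adjusted p up to 0.11 and 0.063) and Batf in 2 (adjusted p up to 0.061).

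The genotype differences after LPS and after TNF were not shown to differ from each other. In the test of LPS minus TNF, edgeR called 0.0% of genes and no member, with 578 genes at an unadjusted p under 0.05; DESeq2 called 4 genes and limma-voom 0. The estimates were -0.75 ± 0.39 for Batf (adjusted p = 0.90), 0.63 ± 0.47 for Fos (adjusted p = 0.92) and 0.43 ± 0.20 for Jun (adjusted p = 0.90). The genotype effect at 3 and 8 h differed from that at 0.5 and 1 h for 0.398% of genes, none of them members. For this late minus early difference Fosb had -1.81 ± 0.60 (adjusted p = 0.26) and Junb 0.69 ± 0.19 (adjusted p = 0.20).

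Markers of other cells moved with genotype in the same libraries. The summed level of 9 neutrophil markers was lower in RelA-TA-KI in 9 of 9 pairs (186 to 393 CPM in WT, 145 to 291 CPM in RelA-TA-KI), with 1 of 8 tested markers higher and 6 lower. That of 10 mast cell, erythroid and stromal markers was also lower in 9 of 9 pairs, at 108 to 195 CPM in WT and 45.6 to 78.7 CPM in RelA-TA-KI libraries. Most of it in WT was collagen: Col1a1 had 43.8 to 74.0 CPM in WT and 6.34 to 31.8 CPM in RelA-TA-KI libraries, and Col1a2 had 53.3 to 109 CPM and 7.13 to 36.8 CPM. Fcer1a was at 0. Of its 4 tested markers 3 were lower and none higher. The 8 lymphocyte markers summed to 89.5 to 171 CPM in WT and 117 to 239 CPM in RelA-TA-KI libraries, higher in 9 of 9 pairs. This was mostly Il7r, Ncr1 was at 0, and 1 of 2 tested markers was higher. Dendritic cell markers summed to 5.81 to 24.5 CPM in WT and 2.19 to 26.6 CPM in RelA-TA-KI, with 2 of 4 tested markers lower. Of the 9 macrophage markers 4 were higher and 2 lower. The part of these cells in the genotype differences of the AP-1 genes was not tested, and in bulk RNA fewer cells of a type and less RNA per cell cannot be told apart.

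Among 16 other FOS, JUN, ATF and BATF genes, 15 were tested, of which 10 rose and 2 fell over the LPS course and 4 rose and 1 fell over the TNF course, where 72.2% and 30.4% of all genes were called. Their median largest change after LPS was 0.75, against -0.20 over all genes. Batf2 rose most, by 7.47 at 8 h of LPS and 4.12 at 8 h of TNF (log2), from 0.495 to 164 CPM in WT and from 2.15 to 278 CPM in RelA-TA-KI cells after LPS. Its unstimulated levels rest on 4 counts in WT and 12 in RelA-TA-KI cells, so the size of its rise is imprecise. Jdp2, which dimerises with JUN proteins and represses AP-1 sites, rose by 3.84, and Creb5 by 3.31, at 8 h of LPS. Atf5 fell by 0.94 and Atf1 by 0.46 at that time, the latter turning to a rise of 0.38 without the WT unstimulated library. In the genotype comparison 6 of the 15 were higher in RelA-TA-KI cells and none was lower, where 19.7% of all genes were called in either direction, led by Batf2 (0.76 ± 0.19), Nfil3 (0.52 ± 0.15) and Creb5 (0.49 ± 0.06), with a median of 0.11 against -0.0047 over all genes.

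Of 12 other MAF, NRF and BACH genes, the partners and relatives of Maff, 9 were tested. Over the LPS course 4 rose and 4 fell (72.2% of all genes called). Mafk, another small MAF gene, rose by 2.90 and Bach1, a repressor that pairs with small MAF proteins, by 2.18, both at 3 h, whereas Maf, a large MAF gene of macrophages, fell by 1.59. Over the TNF course 2 rose and 2 fell (30.4% of all genes called). In WT cells Mafk was at 30.7 CPM unstimulated and 188 CPM at 3 h of LPS, and in RelA-TA-KI cells at 28.7 and 265 CPM. In the genotype comparison 1 gene was lower, Nfe2l2, the oxidative stress factor that pairs with small MAF proteins (-0.52 ± 0.12), and none was higher, with 19.7% of all genes called.

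Of 32 genes of the MAP kinase pathway and the ternary complex factors, which carry the signal to the Fos promoter, 30 were tested. Over the LPS course 12 rose and 15 fell, against 72.2% of all genes called, led by Map3k8 (4.07), the kinase TPL2 that feeds ERK in macrophages, Mapkapk2 (2.66) and Map2k1 (2.12), and by falls of Map2k6, Rps6ka5 (-2.17) and Elk3 (-1.64), all largest at 8 h. Map2k6 had 63 counts in WT and 48 in RelA-TA-KI unstimulated cells and 0 and 2 counts at 8 h of LPS, too few for a fold change. Over the TNF course 5 rose and 5 fell, and between genotypes 3 were higher and 2 lower in RelA-TA-KI cells, shares near the 30.4% and 19.7% of all genes. Mapkapk2 had the largest of these differences, -0.61 ± 0.10, with 1655 CPM in WT and 869.9 CPM in RelA-TA-KI cells at 8 h of LPS.

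All 20 textbook AP-1 target genes on the list were tested. Over the LPS course 13 rose and 3 fell, with a median of 1.43 against -0.20 over all genes, and over the TNF course 8 rose and 2 fell. Of all genes 72.2% and 30.4% were called in these courses. The collagenase gene Mmp13 rose by 6.12 and Mmp14 by 6.02 at 8 h of LPS, and Plau fell by 2.13. Between genotypes 7 were higher and 5 lower in RelA-TA-KI cells, where 19.7% of all genes were called. Vegfa (1.52 ± 0.20), Mmp13 (1.19 ± 0.10) and Mmp12 (1.17 ± 0.08) were among the higher genes, and Timp1 (-1.32 ± 0.15) and Mmp9 (-0.76 ± 0.14) among the lower ones. Vegfa, which encodes a growth factor of vessels, was at 16.0 CPM in WT and 78.1 CPM in RelA-TA-KI cells at 0.5 h of LPS. The list's median genotype difference was -0.02, against -0.0047 over all genes.

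The members did not share 1 pattern. Over the 18 libraries, which share the TMM scaling, the log2 CPM of Fos and Jun had a Pearson correlation of 0.87, Fosb and Fosl2 0.84, Junb and Atf3 0.84, Fosl2 and Jun 0.82, and Jund and Atf3 0.80. Batf ran against Fosl2 (-0.67), Jun (-0.54) and Fosb (-0.53). Outside the members, the genes most like Fos were Egr1 (0.85) and Dusp1 (0.81), and like Jun Vegfa (0.89) and Egr1 (0.85). Fosb was nearest to Nr4a1 (0.94) and Kdm6b (0.91), and Fosl2 to Tob1 (0.93) and Hilpda (0.92). Junb was nearest to Ppp1r15a (0.91) and Nfkbiz (0.91), and Atf3 to Klf6 (0.93) and Ier5 (0.89). Jund was nearest to Dot1l and Rraga (0.85 each), and Maff to Yrdc (0.84) and Ifrd1 (0.82). Batf was nearest to Ebi3 (0.99) and Ric1 (0.98). These correlations over 18 libraries are a description and were not tested.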

How the data were processed

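Polyadenylated RNA of 18 cultures was sequenced as single ends of 50 bases after a stranded library kit, per the labels' protocols. The authors deposited raw read counts per gene with gene lengths and mm10 coordinates. Per the submitters' processing notes, cutadapt 1.12, STAR, featureCounts 1.5.0 and DESeq2 were used. Which annotation release and which strand setting were used is not given in the sources used here. Of 45706 genes, 24529 were at 0 in every library and for 563 no symbol was found.

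Tests used edgeR 4.0.16 (R 4.3.3) on these counts: TMM factors, filterByExpr (minimum count 10, minimum total 15), robust quasi-likelihood fits, and p-values adjusted by Benjamini-Hochberg over 11308 genes at 0.05. Condition and genotype were additive terms (8 residual degrees of freedom), and genotype by stimulus or by phase had 6. SE is the change divided by the square root of F, which is approximate. The common biological coefficient of variation was 0.111. Nothing says that libraries came from separate mice, so p-values measure the spread between these libraries. A response takes its direction at its largest change. Levels per kb use the deposited gene lengths, and log2 CPM has a prior count of 0.5. Fits were tested on simulated data. Alternatives were DESeq2 1.42.0, its size factors, library totals, no filter, at least 1 CPM in 9 libraries, limma-voom (limma 3.58.1), and leaving out each library.

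The members and lists were chosen with earlier results of these data known. All members are named, with up to 3 genes in each direction per list with the largest called changes, and the 2 best correlated genes of each member among tested genes; some genes that this rule names are not reported here. Antisense overlaps were read from GENCODE vM21.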

Additional observations from a re-analysis of the deposited data

Results flagged for a closer look

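The Fosb value was higher in RelA-TA-KI than in WT cells in all 4 pairs at 0.5 and 1 h and lower in all 4 pairs at 3 and 8 h. The late minus early difference was -1.81 on the log2 scale (SE 0.60). edgeR's quasi-likelihood test did not call this difference (adjusted p = 0.26), although it was called when the filter on low counts was dropped. The late Fosb values rest on 1 to 18 counts per library, with 1 count in each genotype at 8 h of LPS. The 8 h pairs show no difference beyond counting error. At 3 h of LPS the 95% counting intervals overlapped, at 1.92 to 5.12 CPM of library totals in WT and 0.507 to 2.60 in RelA-TA-KI. Those at 3 h of TNF also overlapped.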

How the results depend on the processing

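Each of the 9 members was tested in 26 comparisons, 234 values, and none changed its call under DESeq2 size factors or a minimum of 1 CPM in 9 libraries. A sign change where neither fit passed is not counted as a reversal. DESeq2 added 10 calls and lost 1, limma-voom added 2 and lost 5, no filter added 2 and lost 18, and library totals added 13, lost 10 and reversed 3. Leaving out 1 library at a time gave 4212 values, of which 156 lost their call, 49 gained one and 2 were reversed. The cause was not tested for any of these, beyond the smaller number of libraries in the last.

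Library totals moved the median of all genes by -0.88 for the LPS response, -0.53 and -0.95 at 3 and 8 h of LPS, -0.31 for LPS against TNF and -0.25 for TNF. They also cut the share of calls that were rises, from 49.6% to 20.1% for LPS and from 55.1% to 31.7% for TNF. With them the largest LPS change of Fosl2 was -1.62 and of Nfe2l2 -1.50, and Jund stood at -0.0067 for LPS against TNF and -0.11 at 8 h. All genes called were 6552 (LPS, 3 against 1 h), 6645 (LPS against TNF, 3 h) and 29 (late minus early genotype effect). Members called were 1 (TNF, 1 against 0.5 h), 3 (TNF, 8 against 3 h) and 0 (LPS against TNF, 0.5 h, by edgeR, which with TMM had 274 of all genes at an unadjusted p under 0.05, while DESeq2 called 2 members).

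Without the filter, members called were 0, 1 and 2 in the TNF steps to 1, 3 and 8 h, 2 for LPS against TNF at 3 h and 1 for late minus early. Genes called were 11 for LPS against TNF at 0.5 h, 3 for the genotype effect of LPS minus TNF and 147 for late minus early. With DESeq2, genes called were 67 and 190 at 0.5 and 1 h of TNF, 71 in the TNF step to 1 h, 18 for LPS against TNF at 0.5 h, 4 for LPS minus TNF and 109 for late minus early. Members called were 7 at 0.5 h of TNF, and 2 and 5 for LPS against TNF at 0.5 and 1 h. With limma-voom 1 member was called in the TNF step to 1 h.

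Without 1 library at a time, genes called ranged as follows: 52 to 116, 343 to 981, and 73 to 374 for LPS at 0.5 h, at 1 h and in the step between; 19 to 47, 35 to 155, 533 to 2010 and 2337 to 4143 for TNF at 0.5, 1, 3 and 8 h, and 3 to 50, 125 to 1048 and 905 to 2282 in its steps. They were 0 to 7 and 37 to 162 for LPS against TNF at 0.5 and 1 h, 596 to 1148 and 283 to 917 for genotype after LPS and after TNF, 0 to 1 for LPS minus TNF and 12 to 77 for late minus early. Members called were 4 to 7 at 1 h of LPS and 1 to 3 in the step to it, 2 to 5 at 8 h of TNF, 0 to 2, 1 to 2 and 0 to 2 in the TNF steps, 0 to 2 and 2 to 4 for LPS against TNF at 0.5 and 3 h, 4 to 7 for genotype after LPS and 0 to 1 for late minus early. The largest change of Fosl2 ranged from -1.35 to 1.91 after LPS and from -0.88 to 1.52 after TNF, negative only without the RelA-TA-KI unstimulated library. After LPS that of Atf1 ranged from -0.76 to 0.38, positive only without the WT unstimulated library, and that of Nfe2l2 from -1.38 to 1.34, negative without that library or the WT library at 3 h of LPS.

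Every fit pairs the genotypes by condition, and the labels give no replicate numbers for a further block. Counts under 20 limit Fosb at rest, 3 and 8 h, and Maff in the RelA-TA-KI library at 8 h of LPS.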
